A study of Mus musculus with 6 samples.

Results

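The 40 genes described here are interferon-stimulated genes, that is, genes whose transcription rises in cells exposed to interferon. They were chosen by name, but with earlier results of these data known. All 40 were found among the 48897 genes of the deposited table and passed the filter on low counts. They fall into a type I class of 29 genes, with the Ifit and Oas families, other antiviral effectors, RNA sensors and the transcription factors Irf7, Irf9 and Stat2, and an interferon-gamma class of 11 genes, with Irf1, the interferon-inducible GTPases and genes of antigen processing. Messenger RNA was sequenced from epididymal white adipose tissue of wild-type C57BL/6 mice aged 35 weeks, in 6 libraries, 2 for each diet group. All mice began their diet at 6 weeks of age. F-L was read as a low-fat diet (10% of energy from fat) throughout, F-H as a high-fat diet (60%) throughout, and F-H-L as a high-fat diet for 9 weeks and then 10 cycles that each paired 1 low-fat week with 1 high-fat week, in that order. This reading rests on the letters of the codes, and under it the cycled mice ate the high-fat diet last. The labels do not say whether the libraries of a group came from separate mice or from pooled tissue, so each p-value reflects variation between these libraries, part of which may be technical.

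Interferons are secreted proteins that bind receptors on almost every cell. Type I interferons (interferon-alpha and -beta) signal through Jak1 and Tyk2 to a complex that contains Stat2 and Irf9 and binds the interferon-stimulated response element in promoters. Interferon-gamma, made mainly by T and NK cells, acts on promoters through the gamma-activated site, and its targets include the guanylate-binding proteins, the immunity-related GTPases and the genes that prepare peptides for MHC class I. Many genes respond to both, so that the classes are a convention and not a readout of which interferon was present. In obesity, adipose tissue gains macrophages and lymphocytes, which are the cells best known for this response there.

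Promoters of 8 members, 4 of each class, are shown as examples of genes described in the results that follow and of the motif combinations found. RefSeq promoter windows of 300 bases, from 250 before to 50 after a transcript start (build GRCm38.p6), were matched for 32 of the 40 members, 22 of the type I class and 10 of the interferon-gamma class. The core of the response element was searched on both strands as GAAANNGAAA, and the core of the gamma-activated site as TTCNNNGAA, which reads the same on both strands. The response element core lay in 12 of 22 type I windows and in 6 of 10 interferon-gamma windows, against 3.99% of the 27025 genes with a window. The gamma-activated site core lay in 4 of 22 and in 5 of 10, against 9.55% of genes. Both cores were found in 5 members and in 166 genes in all, and in Bst2 the cores overlapped. A match is a run of letters and not a measured binding site.

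The type I promoters shown are those of Ifit1 and Ifit3, each with a pair of response element cores, of Isg15, with 3 overlapping cores, and of Oas1a, with both motifs. The 250 bases before the start are printed 5′ to 3′ on the gene's own strand, with the motif cores in capitals. They lie at chr19:34640639-34640888 (plus strand), chr19:34583279-34583528 (plus strand), chr4:156200819-156201068 (minus strand) and chr5:120907526-120907775 (minus strand), directly upstream of the RefSeq transcript start. By the deposited gene positions, the window of Ifit3 lies wholly within the annotated gene, after its start, and that of Oas1a overlaps the 5′ end of its gene.
Ifit1: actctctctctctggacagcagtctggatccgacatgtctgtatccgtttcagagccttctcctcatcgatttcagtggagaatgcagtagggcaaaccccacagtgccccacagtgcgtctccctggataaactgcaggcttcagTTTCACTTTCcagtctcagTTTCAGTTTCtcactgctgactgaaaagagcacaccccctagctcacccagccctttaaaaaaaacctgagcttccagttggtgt
Ifit3: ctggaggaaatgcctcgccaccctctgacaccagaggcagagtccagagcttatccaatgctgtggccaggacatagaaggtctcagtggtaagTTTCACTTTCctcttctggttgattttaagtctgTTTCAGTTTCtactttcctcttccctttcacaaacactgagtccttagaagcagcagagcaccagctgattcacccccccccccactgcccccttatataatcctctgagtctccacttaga
Isg15: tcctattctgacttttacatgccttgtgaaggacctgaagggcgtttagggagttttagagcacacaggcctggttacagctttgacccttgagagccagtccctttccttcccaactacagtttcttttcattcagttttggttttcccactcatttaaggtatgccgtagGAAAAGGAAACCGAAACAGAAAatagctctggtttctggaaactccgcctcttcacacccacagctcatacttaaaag
Oas1a: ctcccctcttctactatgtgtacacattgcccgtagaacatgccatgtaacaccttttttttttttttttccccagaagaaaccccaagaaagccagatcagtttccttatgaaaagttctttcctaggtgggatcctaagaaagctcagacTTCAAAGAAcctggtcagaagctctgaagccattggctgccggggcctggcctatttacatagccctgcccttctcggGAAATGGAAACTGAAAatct

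The interferon-gamma promoters shown are those of Irf1, with a gamma-activated site core only, of Gbp2, with a response element core only, of Igtp, with both, and of Tap1, with neither core in these letters. They lie at chr11:53769764-53770013 (plus strand), chr3:142620413-142620662 (plus strand), chr11:58199306-58199555 (plus strand) and chr17:34187306-34187555 (plus strand). The Tap1 window spans the whole space between Tap1 and Psmb9, which is transcribed away from it on the other strand.
Irf1: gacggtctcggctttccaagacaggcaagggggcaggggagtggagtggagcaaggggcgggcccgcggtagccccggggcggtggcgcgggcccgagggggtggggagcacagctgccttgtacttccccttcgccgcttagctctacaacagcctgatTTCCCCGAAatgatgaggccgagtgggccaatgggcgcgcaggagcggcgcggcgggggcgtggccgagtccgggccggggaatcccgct
Gbp2: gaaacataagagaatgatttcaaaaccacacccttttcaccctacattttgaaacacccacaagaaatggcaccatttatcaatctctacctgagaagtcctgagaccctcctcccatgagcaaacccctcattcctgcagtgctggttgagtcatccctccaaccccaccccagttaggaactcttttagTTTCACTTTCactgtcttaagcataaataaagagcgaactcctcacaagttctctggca
Igtp: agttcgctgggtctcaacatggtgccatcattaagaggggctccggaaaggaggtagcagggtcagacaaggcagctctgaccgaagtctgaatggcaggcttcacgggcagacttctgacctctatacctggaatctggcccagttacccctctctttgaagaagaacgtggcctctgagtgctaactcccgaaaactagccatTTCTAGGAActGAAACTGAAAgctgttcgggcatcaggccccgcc
Tap1: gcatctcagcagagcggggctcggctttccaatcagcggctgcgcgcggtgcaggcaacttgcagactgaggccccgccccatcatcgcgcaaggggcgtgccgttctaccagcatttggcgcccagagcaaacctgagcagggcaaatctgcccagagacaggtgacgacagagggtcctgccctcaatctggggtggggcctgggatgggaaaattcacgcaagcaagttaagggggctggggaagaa

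The libraries did not hold the same mix of tissue. Total counts ran from 41091012 to 49230161 a library. The 20 adipocyte markers were detected in every library. Their summed level was 3688 CPM (counts scaled to library size) in F-L replicate 1 and from 24909 to 55848 in the other 5 libraries. The 20 epididymis markers summed to 18643 CPM in F-L replicate 1, to 3.46 in F-H replicate 1, where 9 of them were at 0, and to between 463 and 3804 in the others. The 15 germ cell markers summed to 797 and 6713 CPM in F-L and to 56.8 to 208 elsewhere. F-L replicate 1, with few adipocyte and many epididymis transcripts, and F-H replicate 1, described next, stand apart. F-L replicate 2 stands apart too, with the most germ cell transcripts. Fold changes that move by over 1.5 times without F-H replicate 1 are therefore given with and without it. Class medians are given with and without F-L replicate 1 and F-H replicate 1. Those of F-H against F-L are also given without F-L replicate 2.

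**Figure D1:**
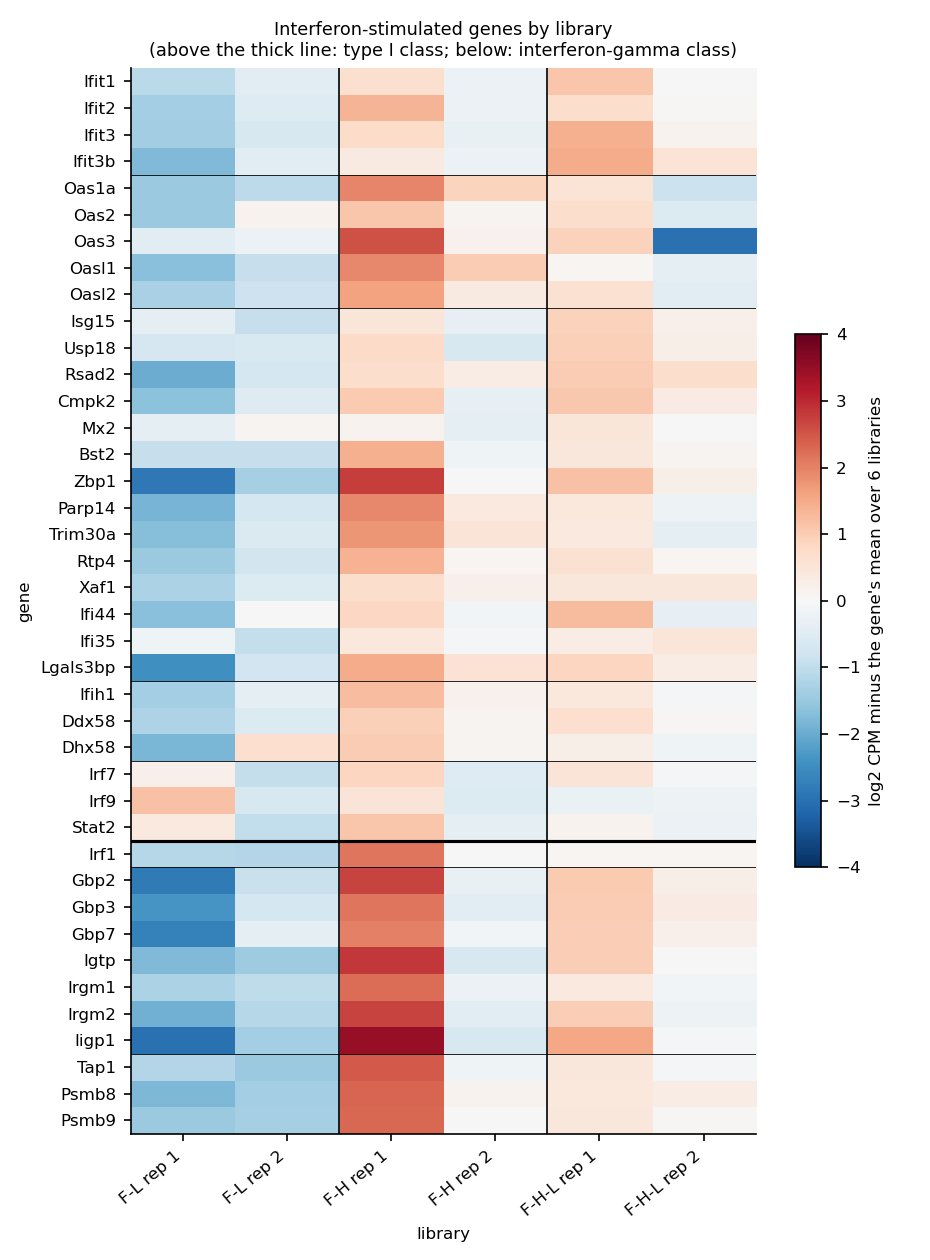
Heat map of the 40 interferon-stimulated genes (rows) in the 6 libraries (columns), as log2 CPM with TMM library factors minus the mean of that gene over the 6 libraries. F-H replicate 1 was the highest library for 29 of the 40 genes and F-L replicate 1 the lowest for 30, on this scale.

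Across the 6 libraries, the interferon-gamma class was high in 1 library above all, F-H replicate 1. In bulk tissue, a change in the number of cells of a type and in RNA per cell cannot be told apart. Levels are given as RPKM (reads scaled to gene length and library size) with TMM-adjusted library sizes. Comparison between libraries on this scale rests on the TMM factors, and results with other scalings are given below. F-H replicate 1 was the highest library for all 11 interferon-gamma members and for 18 of 29 type I members, 29 of 40 in all, against 20.5% of all 22289 genes tested. F-L replicate 1 was the lowest for 30 of 40 members, 9 of 11 and 21 of 29, against 28.2% of all genes. F-H-L replicate 1 was the highest for 9 members, all of the type I class (Ifit1, Ifit3, Ifit3b, Isg15, Usp18, Rsad2, Cmpk2, Mx2 and Ifi44), against 8.62% of all genes. The remaining members, Ifi35 and Irf9, were highest in F-H-L replicate 2 and in F-L replicate 1. In the heat map of the members, these appear as a column of high values in F-H replicate 1 that is deepest in the interferon-gamma rows.

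The Ifit proteins bind viral RNA and hinder its translation, and their genes lie side by side on chromosome 19. Ifit3 stood at 3.11 and 5.26 RPKM in the F-L libraries, at 13.6 and 6.68 in F-H, and at 22.0 and 9.04 in F-H-L. Ifit1 stood at 2.17 and 3.45 in F-L, at 7.13 and 3.86 in F-H, and at 9.94 and 4.49 in F-H-L. Ifit2 stood at 1.62 and 2.94 in F-L, at 10.7 and 3.58 in F-H, and at 6.82 and 4.34 in F-H-L. For all 4 genes of the family both F-H and both F-H-L libraries lay above both F-L libraries on this scale. Over all genes these positions held for 27.1% (F-H) and 29.9% (F-H-L). F-H replicate 2 was only slightly above, and without TMM factors it lay slightly below F-L replicate 2 for Ifit1 and Ifit3b. The fitted log2 fold change of F-H against F-L was 1.27 ± 0.61 for Ifit3 (SE, edgeR adjusted p = 0.231) and 0.96 ± 0.59 for Ifit1 (edgeR adjusted p = 0.338), neither past the test. These were 0.73 and 0.52 without F-H replicate 1. Ifit3 and Ifit3b share long stretches of sequence, with 61.8% of the 31-base words of Ifit3 transcripts also in another gene, so their counts are uncertain.

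The 2′-5′ oligoadenylate synthetases make the second messenger that activates RNase L, while the Oas-like protein Oasl1 is an inactive relative that limits Irf7 translation. Oas1a, whose promoter carries both motifs, stood at 1.44 and 1.92 RPKM in F-L, at 15.5 and 7.44 in F-H, and at 5.86 and 2.19 in F-H-L. Oasl2 stood at 2.08 and 2.88 in F-L, at 15.5 and 6.48 in F-H, and at 7.66 and 3.66 in F-H-L. Oas2 stood at 0.465 and 1.42 in F-L, at 2.78 and 1.39 in F-H, and at 2.12 and 0.891 in F-H-L. Oas1a and Oasl2 were thus above F-L in both F-H libraries, while Oas2 overlapped between the groups. The log2 fold change of F-H against F-L was 2.76 ± 0.70 for Oas1a (edgeR adjusted p = 0.0891). It was 2.78 ± 0.65 for Oasl1 (edgeR adjusted p = 0.0816), the lowest adjusted p among the 40 members, and 2.14 ± 0.61 for Oasl2 (edgeR adjusted p = 0.0998). Of the 31-base words of Oas1a transcripts, 68.8% also occurred in another gene, mostly Oas1g, so that its counts are uncertain too.

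Among the other effectors, Bst2, the tetherin that holds budding virus at the cell surface, and Lgals3bp, a secreted glycoprotein, had the highest levels of the type I class. Bst2 stood at 52.3 and 51.7 RPKM in F-L, at 264 and 88.1 in F-H, and at 135 and 106 in F-H-L. Lgals3bp stood at 17.1 and 54.6 in F-L, at 265 and 141 in F-H, and at 171 and 115 in F-H-L. For both genes every F-H and F-H-L library lay above both F-L libraries. The log2 fold change of F-H against F-L was 1.75 ± 0.54 for Bst2 (edgeR adjusted p = 0.111) and 2.49 ± 0.68 for Lgals3bp (edgeR adjusted p = 0.0952). Bst2 was at 0.81 and Lgals3bp at 2.04 without F-H replicate 1. Zbp1, a sensor of left-handed nucleic acid, had the highest fold change of the class at 3.84 ± 1.11 (edgeR adjusted p = 0.102). Its level was 25.9 RPKM in F-H replicate 1 and 3.86 in replicate 2, and its fold change without the former was 1.96.

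Parp14, an ADP-ribosyltransferase, stood at 1.45 and 3.23 RPKM in F-L, at 19.997 and 6.91 in F-H, and at 7.00 and 4.59 in F-H-L. Isg15, a ubiquitin-like modifier, was low, at 1.67 and 1.13 in F-L, at 3.03 and 1.70 in F-H, and at 4.10 and 2.46 in F-H-L. Usp18, the protease that removes Isg15 from its targets, stood at 2.46 and 2.62 in F-L, at 6.66 and 2.55 in F-H, and at 7.61 and 4.63 in F-H-L. Isg15 and Usp18 were both highest in F-H-L replicate 1, and in F-H the second library lay within or close to the F-L values. The log2 fold change of Isg15 was 0.75 ± 0.71 for F-H against F-L (edgeR adjusted p = 0.536), and 0.33 without F-H replicate 1. Mx2, typed as a transcribed pseudogene in the deposited table, stood at 0.594 and 0.830 in F-L, at 0.836 and 0.589 in F-H, and at 1.08 and 0.768 in F-H-L, and its groups overlapped. Rsad2 (viperin), which makes a chain-terminating nucleotide, differed from Isg15 in that its F-H libraries were close together, at 9.73 and 7.26 RPKM against 1.52 and 3.63 in F-L. Its log2 fold change of F-H against F-L was 1.72 ± 0.49 (edgeR adjusted p = 0.101).

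The RNA sensors Ifih1 (MDA5) and Ddx58 (RIG-I) start the production of type I interferon, and Dhx58 (LGP2) tunes them. Ddx58 stood at 2.15 and 3.47 RPKM in F-L, at 9.90 and 5.49 in F-H, and at 8.19 and 5.32 in F-H-L. Ifih1 stood at 1.63 and 3.19 in F-L, at 9.86 and 4.70 in F-H, and at 5.59 and 3.93 in F-H-L. Dhx58 stood at 1.34 and 7.66 in F-L, at 9.71 and 5.17 in F-H, and at 5.63 and 4.28 in F-H-L. The F-L libraries were the lowest for Ddx58 and Ifih1, but for Dhx58 the second F-L library lay among the others. The log2 fold change of Ddx58 was 1.45 ± 0.46 for F-H against F-L (edgeR adjusted p = 0.117).

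Irf7, Irf9 and Stat2, the transcription factors of the type I class, did not follow the order of most other type I members. Irf9 stood at 42.3 and 11.9 RPKM in F-L, at 26.4 and 12.7 in F-H, and at 15.4 and 16.1 in F-H-L. Stat2 stood at 10.3 and 3.99 in F-L, at 17.0 and 6.00 in F-H, and at 8.72 and 6.70 in F-H-L. Irf7, the master regulator of interferon-alpha genes, stood at 16.4 and 7.27 in F-L, at 25.6 and 9.91 in F-H, and at 20.1 and 13.3 in F-H-L. For all 3 the first F-L library was more than 2-fold above the second, as it was for 5040 of the 22289 genes tested. For 23 of the other 26 type I members the first F-L library was below the second. The log2 fold changes of F-H against F-L were 0.59 ± 0.61 for Irf7 (edgeR adjusted p = 0.576), 0.69 ± 0.65 for Stat2 (edgeR adjusted p = 0.535) and -0.47 ± 0.65 for Irf9 (edgeR adjusted p = 0.677). Without F-H replicate 1, the values were -0.21 for Irf7 and for Stat2 and -1.06 for Irf9, and without F-L replicate 1, the value for Irf9 was 0.71.

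In the interferon-gamma class, Irf1, the transcription factor that relays the gamma response, stood at 7.29 and 7.13 RPKM in F-L, at 71.3 and 16.5 in F-H, and at 17.1 and 16.9 in F-H-L. The F-L pair and the F-H-L pair were each close together, with F-H replicate 2 beside the F-H-L pair and F-H replicate 1 far above. The log2 fold change of F-H against F-L was 2.60 ± 0.68 (edgeR adjusted p = 0.0918), and 1.24 without F-H replicate 1.

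The guanylate-binding proteins and immunity-related GTPases attack the membranes around intracellular microbes. Gbp2 stood at 4.10 and 15.7 RPKM in F-L, at 190.1 and 23.4 in F-H, and at 59.9 and 34.4 in F-H-L. Iigp1 stood at 1.54 and 4.75 in F-L, at 135 and 7.79 in F-H, and at 35.1 and 11.6 in F-H-L. Igtp stood at 3.84 and 4.91 in F-L, at 92.3 and 8.44 in F-H, and at 26.0 and 13.0 in F-H-L. Each of these lay well above every other library in F-H replicate 1, and F-H replicate 2 lay between the F-L and the F-H-L libraries. Irgm2, a regulator of the other GTPases, showed the same order, at 2.22 and 3.83 in F-L, at 55.2 and 6.27 in F-H, and at 16.9 and 7.33 in F-H-L. The log2 fold change of F-H against F-L was 4.50 ± 1.49 for Iigp1 (edgeR adjusted p = 0.125), the highest of all 40 members, 3.52 ± 1.12 for Igtp (edgeR adjusted p = 0.117) and 3.42 ± 1.17 for Gbp2 (edgeR adjusted p = 0.130). Without F-H replicate 1 these were 1.37 for Iigp1, 1.0 for Igtp and 1.31 for Gbp2. Igtp, Irgm2, Iigp1 and Gbp7 each share between 10.2% and 16.4% of their 31-base words with other genes, so that part of their counts is uncertain. The same holds for Ifit1, Isg15, Mx2, Trim30a and Rtp4 of the type I class, which share between 10.5% and 14.5%.

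Tap1 carries peptides into the endoplasmic reticulum, and Psmb8 and Psmb9 are catalytic subunits of the immunoproteasome, which cuts them. The 3 genes are neighbours on chromosome 17. Psmb8 stood at 14.2 and 19.5 RPKM in F-L, at 249.8 and 54.6 in F-H, and at 66.6 and 60.6 in F-H-L. Psmb9 stood at 10.8 and 11.9 in F-L, at 148 and 30.3 in F-H, and at 40.6 and 30.97 in F-H-L. Tap1 stood at 7.42 and 5.90 in F-L, at 91.7 and 14.9 in F-H, and at 22.5 and 15.6 in F-H-L. In all 3 genes the F-H-L pair and F-H replicate 2 formed a middle level, above F-L and below F-H replicate 1. The log2 fold changes of F-H against F-L were 3.17 ± 0.74 for Psmb8 (edgeR adjusted p = 0.0819), 2.96 ± 0.75 for Psmb9 (edgeR adjusted p = 0.0891) and 3.0 ± 0.85 for Tap1 (edgeR adjusted p = 0.100). They were 1.75, 1.47 and 1.21 in turn without F-H replicate 1.

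**Figure D2:**
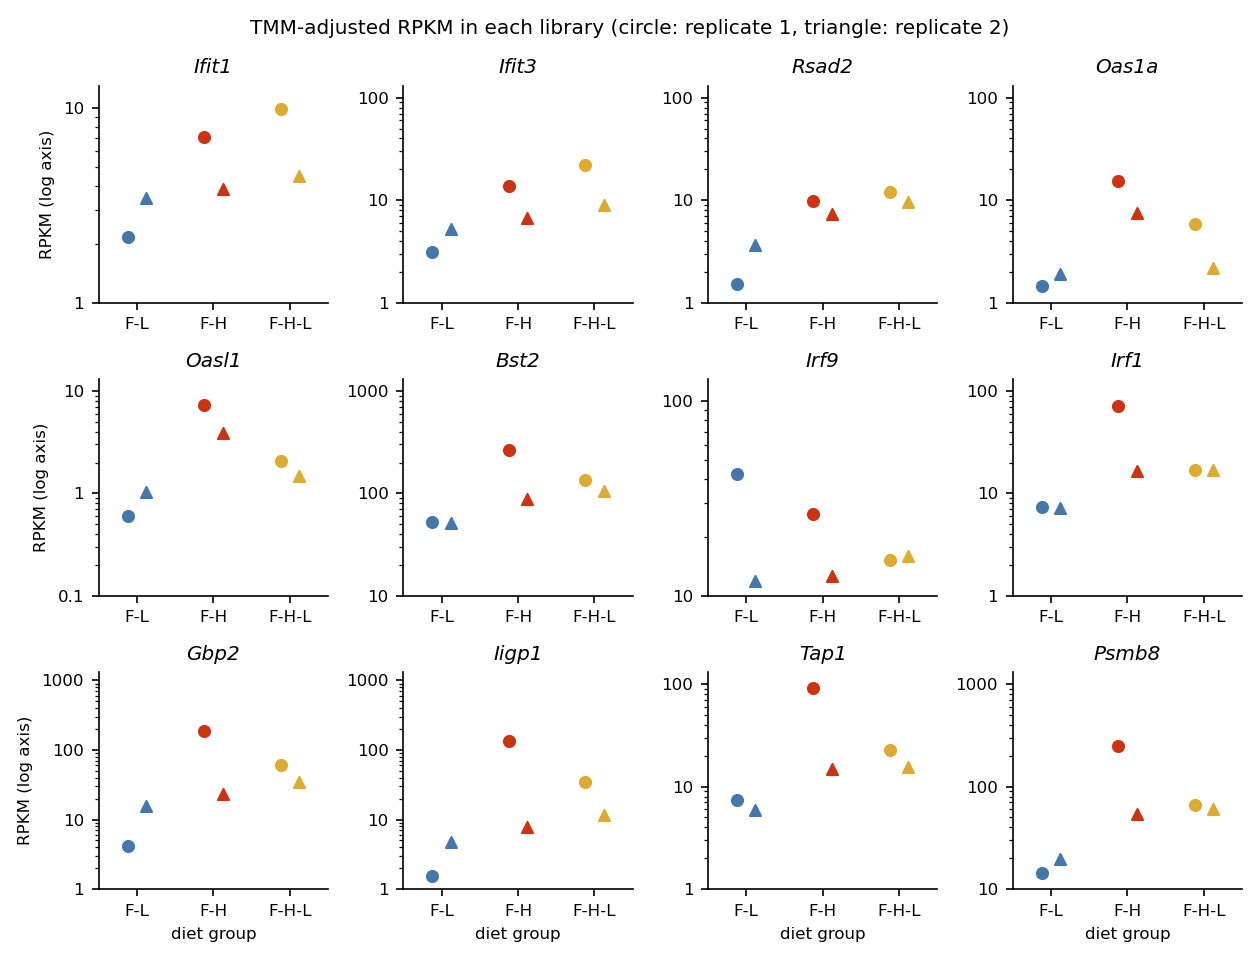
TMM-adjusted RPKM (log axis, own range in each panel) of 12 interferon-stimulated genes in each of the 6 libraries, by diet group, with circles for replicate 1 and triangles for replicate 2. Iigp1 ran from 1.54 to 135 RPKM and its F-H libraries stood at 135 and 7.79, while the F-H libraries of Rsad2 stood at 9.73 and 7.26.

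The F-H libraries disagreed far more in the interferon-gamma class than in the type I class. The first F-H library exceeded the second by a median of 5.87-fold over the 11 interferon-gamma members, with a range of 4.32 (Irf1) to 17.3 (Iigp1). Over the 29 type I members the median was 2.08-fold, from 1.34 to 6.68 (Zbp1), and over all genes tested it was 0.957-fold. The difference was over 2-fold in all 11 interferon-gamma and 16 of 29 type I members, 27 of 40 in all, against 6.99% of all genes. In the other groups the classes lay close together, with medians of 0.729-fold and 0.601-fold between the F-L libraries and 1.58-fold and 1.54-fold between the F-H-L libraries, for the interferon-gamma and type I class in turn. The plot of folds between libraries of a group shows this gap in F-H, where the classes still overlap: the type I members Zbp1 and Oas3, at 6.68 and 5.07, lay among the interferon-gamma points.

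**Figure D3:**
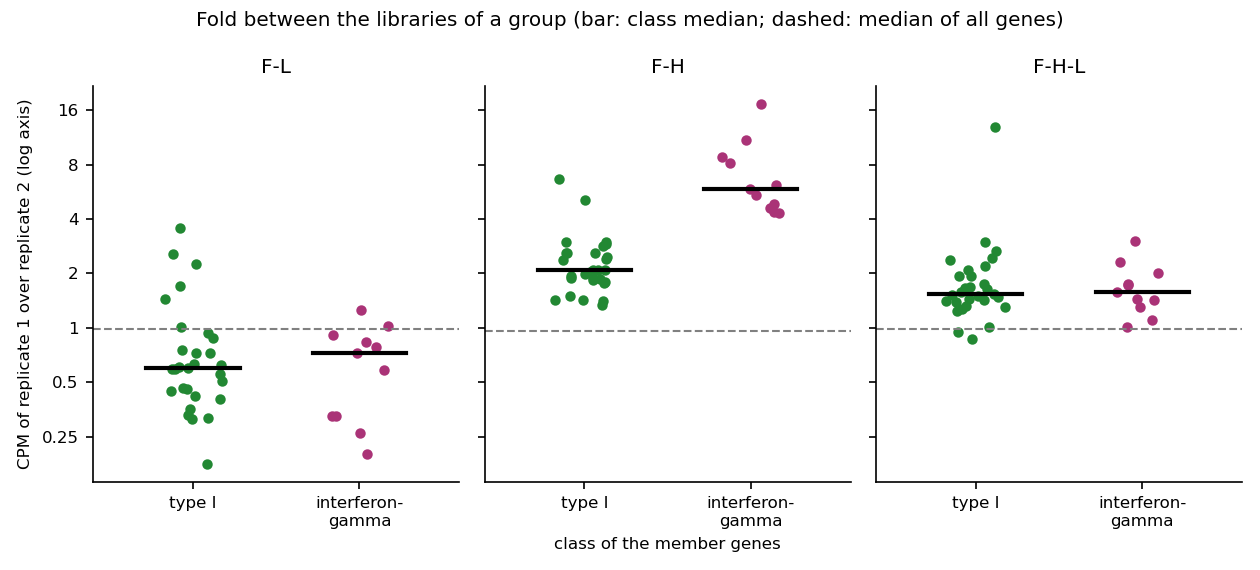
Fold of replicate 1 over replicate 2 in TMM-adjusted CPM (log axis) for each member, by diet group and class. Bars mark class medians, 2.08 for type I and 5.87 for interferon-gamma in F-H, and dashed lines mark the median of all genes tested, 0.957 in F-H.

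For continuous high-fat against low-fat feeding, both class medians were higher in F-H on the TMM scale (the type I median not under adipocyte scaling), but no single member passed the test. By edgeR's quasi-likelihood test with Benjamini-Hochberg adjustment, 0 of 40 members had an adjusted p under 0.05, against 0.866% of all genes, and the adjusted p of the members ran from 0.0816 to 0.998. At an unadjusted p under 0.05, 24 members were higher in F-H, 10 of 11 of the interferon-gamma and 14 of 29 of the type I class, against 12.5% of all genes. The members' count rests on the tool and the filter: DESeq2 called 19 members, all higher in F-H (10 of 11 and 9 of 29), against 25.7% of all genes in either direction. With no filter on low counts edgeR called 24, against 14.1%. The limma fit on the deposited RPKM called 0, against 360 of all 22289 genes in either direction. Without F-L replicate 2, edgeR called 10 of 40 members, a share close to the 23.8% of all genes called in that fit. Without F-H replicate 1 it called 0 members, with 8 at an unadjusted p under 0.05 against 10.8% of all genes. Both F-H libraries lay above both F-L libraries for 32 of 40 members, all 11 and 21 of 29, against 27.1% of all genes. On the deposited RPKM, without TMM factors, this held for 27 members, all 11 and 16 of 29, against 20.9% of all genes.

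The median log2 fold change of F-H against F-L was 3.0 in the interferon-gamma class and 1.45 in the type I class, against -0.12 over all genes tested. Without F-H replicate 1 the medians were 1.21 and 0.73, and without F-L replicate 1 they were 2.89 and 1.18. Without F-L replicate 2 they were 3.8 and 2.23. The plot of fold changes with and without F-H replicate 1 shows the loss gene by gene: Iigp1 was at 4.50 with it and 1.37 without it, and Oasl1 at 2.78 and 2.32. With libraries scaled to the adipocyte markers in place of TMM, which put the median of all genes at -2.16, the medians were 1.5 for the interferon-gamma and -0.12 for the type I class. With the epididymis marker score as a covariate they were -0.71 and 0.05, against 0.11 for all genes.

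**Figure D4:**
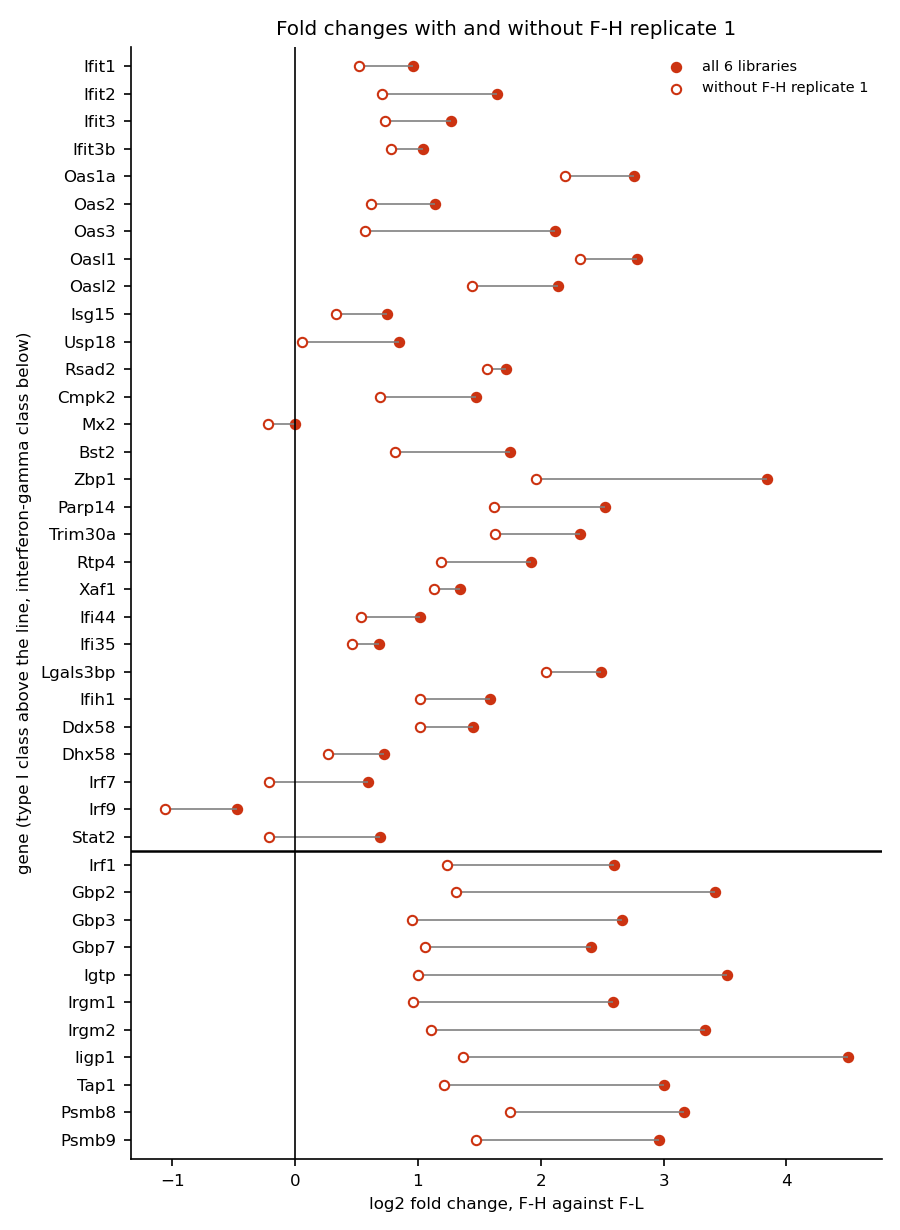
Log2 fold change of F-H against F-L (horizontal axis) for each of the 40 members, from all 6 libraries (filled circles) and without F-H replicate 1 (open circles), on the TMM scale. The open circles of Irf7 and Stat2 lie at -0.21, left of 0. Members of both classes moved left, Iigp1 from 4.50 to 1.37, and all 40 members were higher in F-H replicate 1 than in F-H replicate 2.

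For cycled feeding against low-fat feeding, both class medians were again higher on the TMM scale, though not under adipocyte scaling, and lay closer together. By edgeR's test 0 of 40 members passed the adjusted threshold, against 0% of all genes, and 10 were higher at an unadjusted p under 0.05 (9 of the type I and 1 of the interferon-gamma class), against 8.32% of all genes. DESeq2 called 1 member, Rsad2, against 10.3% of all genes, and edgeR with no filter called 18, against 9.18%. Without F-L replicate 2, edgeR called 4 of 40 members, below the 14.4% of all genes called in that fit. The median log2 fold change was 1.91 in the interferon-gamma class and 1.25 in the type I class, against -0.09 over all genes. Both F-H-L libraries lay above both F-L libraries for 32 of 40 members, all 11 and 21 of 29, against 29.9% of all genes. Without F-L replicate 1 the medians were 1.51 and 0.91. Under adipocyte scaling they were -0.77 and -1.63, with the median of all genes at -3.20.

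Single members differed in this comparison. Rsad2 stood at 12.0 and 9.68 RPKM in F-H-L and its log2 fold change against F-L was 2.07 ± 0.50 (edgeR adjusted p = 0.274). Ifit3 had 1.89 ± 0.62 (edgeR adjusted p = 0.274), above its value for F-H against F-L. Oas1a had 1.25 ± 0.67 (edgeR adjusted p = 0.342) and Psmb8 1.91 ± 0.71 (edgeR adjusted p = 0.274), both below their values for F-H. Iigp1 had 2.88 ± 1.39 (edgeR adjusted p = 0.314) and Irf9 -0.78 ± 0.66 (edgeR adjusted p = 0.514). These comparisons share the F-L libraries, so they are not independent of each other.

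For cycled against continuous high-fat feeding, no member passed the adjusted test by edgeR, against 0% of all genes, and the sign of the class medians was not stable. At an unadjusted p under 0.05, 1 member was lower in F-H-L, Oasl1, against 5.68% of all genes. DESeq2 called 0 members, against 4.75%, and edgeR with no filter called 2, both lower in F-H-L, against 4.13%. The median log2 fold change was -1.31 in the interferon-gamma class and -0.35 in the type I class, against 0.10 over all genes. Without F-H replicate 1 the medians were 0.79 and 0.38, both above 0. With any other single library left out they ran from -2.05 to -1.02 and from -0.88 to -0.05. With all 6 libraries and the epididymis covariate they were 1.69 and 0.78. All 11 interferon-gamma members lay lower in F-H replicate 2 than in either F-H-L library, and all 11 lay higher in F-H replicate 1 than in either. Of the type I members, 17 of 29 lay below both F-H-L libraries in F-H replicate 2, and 19 above both in F-H replicate 1. Over all genes these positions held for 43.4% and 36.2%.

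Few members separated the groups in this comparison. Oas1a, Oasl1 and Trim30a were lower in both F-H-L libraries than in both F-H libraries, 3 of 40 members against 25.5% of all genes, and Ifit3b was higher in both, 1 of 40 against 35.6%. Oasl1 stood at 7.30 and 3.92 RPKM in F-H but at 2.05 and 1.48 in F-H-L, a log2 fold change of -1.67 ± 0.62 (edgeR adjusted p = 0.452). Ifit3 had 0.61 ± 0.60 (edgeR adjusted p = 0.718), the opposite sign, but ran from -0.16 to 1.23 with 1 library left out. Psmb8 had -1.26 ± 0.69 (edgeR adjusted p = 0.552) and Iigp1 -1.61 ± 1.32 (edgeR adjusted p = 0.669), and without F-H replicate 1 these were 0.24 and 1.6.

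The ligands of the pathway were scarcely detected, apart from Ifng. Of 12 interferon genes listed, 1, Ifng, passed the filter on low counts. Ifng had 3 and 5 counts in F-L, 160 and 12 in F-H, then 29 and 2 in F-H-L, so that F-H replicate 1 held most of its reads. Ifnb1 had 0 counts in every library, and no interferon gene other than Ifng had more than 8 counts in a library.

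The receptor Il10rb, shared by interferon-lambda and interleukin-10, was 1 of 2 genes among the pathway lists that passed the test in F-H against F-L. These were 1 of 6 receptor genes and 1 of 12 signal relays and regulators tested, with 0 in the other lists, against 0.866% of all genes. Il10rb rose in F-H against F-L by 2.61 ± 0.33 on the log2 scale (edgeR adjusted p = 0.0480). It stood at 8.54 and 12.1 RPKM in F-L, at 73.7 and 52.5 in F-H, and at 22.6 and 18.5 in F-H-L. The other gene was Irf5, a transcription factor downstream of Toll-like receptors, which rose by 4.10 ± 0.48 (edgeR adjusted p = 0.0447) and stood at 2.17 and 2.99 in F-L, at 60.4 and 28.4 in F-H, and at 8.25 and 7.13 in F-H-L. Both calls were marginal: without F-H replicate 1 the edgeR adjusted p was 0.293 for Il10rb and 0.259 for Irf5, and with the epididymis covariate 0.496 and 0.357. For both genes, both F-H libraries lay above every other library.

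The receptors of interferon-alpha and interferon-gamma varied less. Ifnar1 stood at 8.22 and 5.96 RPKM in F-L, at 20.3 and 15.8 in F-H, and at 10.9 and 10.2 in F-H-L. Ifnar2 stood at 9.62 and 12.7 in F-L, at 36.6 and 27.7 in F-H, and at 25.9 and 22.2 in F-H-L. Both chains had their F-L libraries lowest and F-H libraries highest. Ifngr1 stood at 46.4 and 75.7 in F-L, at 129.5 and 97.1 in F-H, and at 94.8 and 106 in F-H-L. Ifngr2 stood at 13.7 and 16.1 in F-L, at 54.5 and 42.6 in F-H, and at 30.97 and 27.4 in F-H-L. Ifnlr1, the private chain of the lambda receptor, was low and went the other way, at 1.09 and 0.479 RPKM in F-L, at 0.0494 and 0.211 in F-H, and at 0.171 and 0.257 in F-H-L. In the 5 receptor genes other than Ifnlr1, the first F-H library exceeded the second by at most 1.40-fold, whereas it did so by 4.32-fold or more in the interferon-gamma members. In Ifnlr1 the fold of the first over the second was 0.272.

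Cxcl9, a chemokine that interferon-gamma induces and that draws T cells, stood at 0.318 and 4.27 RPKM in F-L, at 116 and 8.76 in F-H, and at 18.3 and 10.8 in F-H-L. Cxcl10 stood at 1.06 and 1.47 in F-L, at 29.2 and 3.78 in F-H, and at 8.14 and 2.26 in F-H-L. Cxcl9 and Cxcl10 were each highest in F-H replicate 1, as Ifng was.

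In the other lists of the pathway no gene passed edgeR's adjusted test in any comparison, apart from Irf5. At an unadjusted p under 0.05 in F-H against F-L, 21 of 30 further interferon-gamma response genes were higher and 1 lower, and 20 of 29 tested further type I response genes were higher and 1 lower, against 12.5% of all genes higher. Cd274 (PD-L1), among the former, stood at 1.22 and 2.17 RPKM in F-L, at 17.7 and 8.25 in F-H, and at 8.84 and 6.203 in F-H-L. Ido1, the tryptophan-degrading enzyme, went the other way, at 17.2 and 2.55 in F-L, at 0.0995 and 0.137 in F-H, and at 1.12 and 1.68 in F-H-L. Isg20, an exonuclease, did so too, at 308 and 65.6 in F-L, at 8.48 and 7.93 in F-H, and at 31.5 and 41.8 in F-H-L. Ido1 and Isg20 were both highest in F-L replicate 1, the library with the most epididymis transcripts. The part of that tissue in their levels was not tested. Among the further type I genes, Trim25, the ubiquitin ligase of RIG-I, stood at 4.69 and 6.02 in F-L, at 24.7 and 15.97 in F-H, and at 9.15 and 7.86 in F-H-L.

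Of 13 genes of nucleic acid sensing, 9 were higher in F-H than in F-L at an unadjusted p under 0.05 by edgeR, against 12.5% of all genes. Ikbke, a kinase that activates Irf3 and Irf7, stood at 0.971 and 1.25 RPKM in F-L, at 17.9 and 8.73 in F-H, and at 3.44 and 2.06 in F-H-L. Aim2, a DNA sensor, stood at 0.176 and 0.166 in F-L, at 3.15 and 1.41 in F-H, and at 0.461 and 0.457 in F-H-L. Both were higher in both F-H libraries than in any other library.

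T and NK cell markers and macrophage markers were highest in F-H replicate 1, as most members were, but did not follow the members throughout. The 20 T and NK cell markers, all detected in every library, summed to 25.8 and 16.5 CPM in F-L, at 474 and 57.4 in F-H, and at 62.9 and 56.2 in F-H-L. Their median fold between the F-H libraries was 8.85, beside 5.87 for the interferon-gamma and 2.08 for the type I members. The 20 macrophage markers, also all detected in every library, summed to 576 and 1253 CPM in F-L, to 21414 and 11580 in F-H, and to 2560 and 2084 in F-H-L, with a median fold of 1.93 between the F-H libraries. In F-H-L the macrophage sum was several times lower than in F-H, while the interferon-gamma members of F-H-L lay above those of F-H replicate 2. The 8 plasmacytoid dendritic cell markers, 1 of which is the member Bst2, summed to 82.3 and 128 CPM in F-L, to 369 and 258 in F-H, and to 264 and 246 in F-H-L. Bst2 alone stood at 203 and 67.7 CPM in F-H, and without it F-H replicate 1 was not the highest library of this list. The part of these cells in the levels of the members was not tested.

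**Figure D5:**
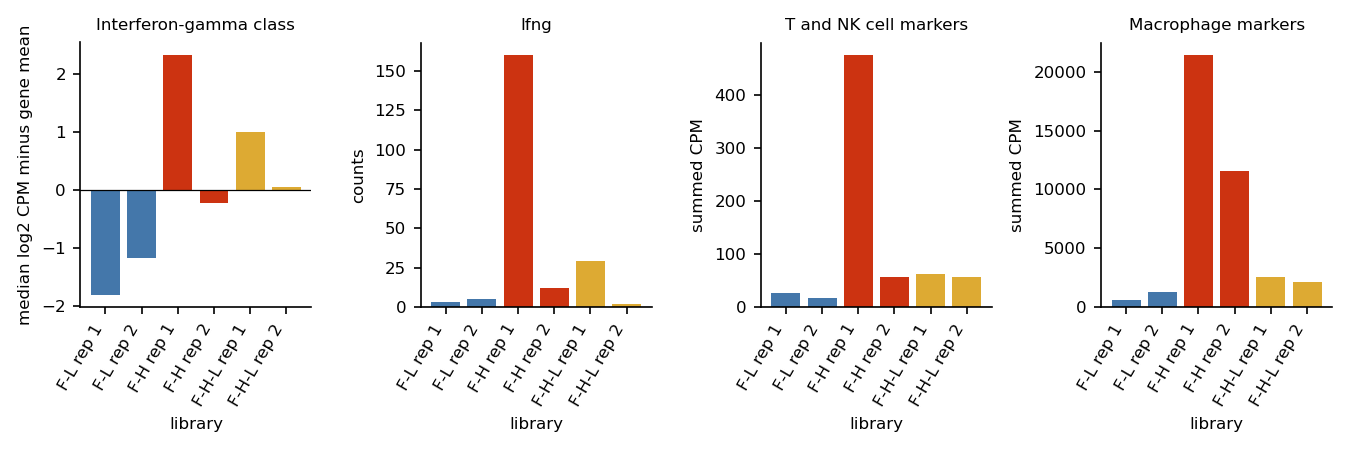
Bar charts over the 6 libraries, giving the median log2 CPM of the 11 interferon-gamma members after subtracting each gene's mean, the counts of Ifng, and the summed CPM of T and NK cell and of macrophage markers. F-H replicate 1 is highest in each, at 2.33, 160 counts, 474 CPM and 21414 CPM, while F-H replicate 2 is below F-H-L replicate 1 except for the macrophage markers.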

How the data were processed

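Messenger RNA was isolated from total RNA and libraries were made with a TruSeq RNA kit, per the labels' protocols. The deposited table holds raw whole-number counts per gene, RPKM that the authors computed from counts, gene length and library total, and the gene length in bases (unit: other), per the file headers and the values. The submitters' processing notes name HISAT2 2.1.0, HTSeq, bcl2fastq and the build mm10. For strand setting and annotation, nothing is given in the sources used here. All columns of values were tied to a library by name. Each deposited RPKM gave back a library total that matched the summed counts to within a relative 1e-05 in 100.0% of the genes checked.

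The counts were tested with edgeR 4.0.16 (R 4.3.3). After filterByExpr, 22289 genes remained. Library sizes were scaled by TMM factors (F-L 1.08 and 1.16, F-H 0.922 and 0.986, F-H-L 0.968 and 0.902). A single quasi-likelihood fit of the diet groups took in all 6 libraries, with 3 residual degrees of freedom. Tests are two-sided, adjusted by Benjamini-Hochberg over all genes tested and called under 0.05. Each SE was derived from the fold change and the F statistic (log2 fold change divided by the root of F). Total counts of 41091012 to 49230161 leave the spread between libraries, not counting error, as the limit on precision for these genes. TMM-adjusted RPKM was computed from counts, lengths and TMM factors. DESeq2 1.42.0 and limma 3.58.1 on log2(RPKM + 1) served as alternatives, and scripts were tested on simulated data. Deviations of equally numbered libraries from their group means correlated at 0.0244, -0.138 and -0.0189 over genes, so the replicate numbers were not taken to pair libraries.

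Members named with values in every library were, by rule, the 3 with the highest mean level in each role plus a list of 14 well-known members, and pathway genes were the ligands, the receptors, Cxcl9, Cxcl10 and the genes with the smallest p in each list. Other members are named with fold changes. The members, roles and lists were chosen with earlier results of these data known, so lists get counts and medians and no test. Shared 31-base words were counted over GENCODE M21 transcripts. A pathway gene that the rule names is not reported here.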

Additional observations from a re-analysis of the deposited data

How the results depend on the processing

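With 2 libraries a group, single-gene calls depended on how the spread was estimated, and the direction of both classes depended on the scaling or the covariate in at least 1 comparison. Genes past the adjusted test in F-H against F-L numbered 193 with the settings reported. They numbered 0 with median-ratio factors, robust estimation, the epididymis covariate or the compared groups alone. The count was 6025 with no filter, 3774 with adipocyte scaling, 360 with limma and 6073 with DESeq2. In F-H-L against F-L, 0 became 3910 with no filter, 6173 with adipocyte scaling and 2271 with DESeq2. In F-H-L against F-H, 0 became 1759 with no filter, 289 with the compared groups alone and 925 with DESeq2. Members called in F-H against F-L were 24 with no filter (14.1% of all genes) and 19 with DESeq2 (25.7% of all genes). Adipocyte scaling called 0 members there, beside 3774 genes. Members called in F-H-L against F-L were 18 with no filter (9.18% of all genes) and 1 with DESeq2 (10.3%). Adipocyte scaling called 1 member there, lower in F-H-L, beside 6173 genes. Members called in F-H-L against F-H were 2 with no filter (4.13% of all genes).

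Median log2 fold changes of the type I class in F-H against F-L were -0.12 with adipocyte scaling, 0.05 with the covariate and 0.86 with limma. Those of the interferon-gamma class were 1.5 with adipocyte scaling and -0.71 with the covariate. In F-H-L against F-L, adipocyte scaling gave -1.63 and -0.77. In F-H-L against F-H, adipocyte scaling gave -1.47 and -2.48, and the covariate 0.78 and 1.69. These 6 libraries leave the covariate few degrees of freedom, and the cause of these shifts was not tested.

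The replicate numbers are not stated to pair the libraries and were not taken to do so. With a replicate block, 0 genes and 0 members passed in each comparison, and the medians of the interferon-gamma and type I class were 2.66 and 1.33, then 1.62 and 1.17, then -1.05 and -0.28.

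Leaving out 1 library at a time, genes past the test ran from 0 to 5799, 0 to 3508 and 0 to 828 in F-H against F-L, F-H-L against F-L and F-H-L against F-H, and members called from 0 to 10, 0 to 4 and 0 to 0. The counts above 0 came without an F-L library, and the members called without F-L replicate 2. Type I medians ran from 0.73 to 2.23, 0.91 to 1.72 and -0.88 to 0.38, and interferon-gamma medians from 1.21 to 3.84, 1.51 to 2.37 and -2.05 to 0.79.

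Single log2 fold changes changed sign as follows. Adipocyte scaling gave Ifit1 -0.75, Ifit3 -0.39, Isg15 -1.44, Bst2 -0.21, Ddx58 -0.26, Irf7 -1.77 and Stat2 -1.71 in F-H against F-L. It gave Ifit3 -0.85, Rsad2 -0.46, Oas1a -1.63 and Psmb8 -1.0 in F-H-L against F-L, and Ifit3 -0.46 in F-H-L against F-H. The covariate gave Ifit1 -0.31, Ifit3 -0.20, Irf7 -0.26, Stat2 -0.19, Gbp2 -0.76, Igtp -0.79 and Iigp1 -1.13 in F-H against F-L, and Psmb8 0.69 and Iigp1 2.77 in F-H-L against F-H. Leaving out 1 library, Irf7 ran from -0.21 to 1.28, Stat2 from -0.21 to 1.52 and Irf9 from -1.06 to 0.71 in F-H against F-L. Irf9 ran from -1.40 to 0.32 in F-H-L against F-L, and Ifit3 from -0.16 to 1.23, Psmb8 from -1.97 to 0.24 and Iigp1 from -2.61 to 1.6 in F-H-L against F-H.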
